A study of Mus musculus with 4 samples.

Results

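The genes described here build and run the machinery that turns a muscle action potential into contraction. They are 37 genes, chosen by symbol from a list of triad, calcium pump, calcium store and calmodulin pathway genes with a count in at least 1 library, out of 23282 gene features in the deposited table. Of these, 35 had enough counts to be tested and 2, Sln and Pln, did not. The cells were myotubes of C2C12, a single mouse myoblast line that fuses into multinucleated muscle cells in culture, and all of them had been deprived of steroids. One group received vehicle and the other 1 µM dexamethasone, a synthetic glucocorticoid, for 2 h, with 2 libraries per group and 4 in all. The sequenced RNA was the fraction bound to chromatin in the nucleus, which is rich in transcripts still being made. The labels do not say whether the libraries of a group came from separate cultures, so p-values measure only the spread between these libraries, which may be technical.

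In skeletal muscle, an action potential runs down the transverse tubules, where the voltage sensor, the dihydropyridine receptor, touches the ryanodine receptor of the sarcoplasmic reticulum and opens it. Calcium held in the store by calsequestrin flows out, binds troponin, and is pumped back by the SERCA pumps, while store-operated channels refill the cell from outside and the mitochondrial uniporter takes up part of the load. Calmodulin passes the calcium signal on to the CaMKII kinases and to the phosphatase calcineurin. Muscle that is still developing uses partly different paralogues from adult fast muscle, among them cardiac-type calsequestrin beside the skeletal form.

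The libraries held 19631435 and 35116830 counts for vehicle and 32463331 and 88596296 for dexamethasone, replicate 1 before replicate 2, and the 37 genes took between 1.25% and 1.36% of each. All 10 markers of differentiated myotubes had at least 20 counts in every library. Their summed level was 124990 and 120910 CPM in the replicate 1 libraries and 44071 and 43147 CPM in the replicate 2 libraries, most of it from Ttn (CPM are counts scaled to a library of 1e6, with TMM scaling between libraries). Cycling and satellite cell markers summed to 56.6 and 61.3 CPM with vehicle and to 42.0 and 49.9 CPM with dexamethasone. Pax7, the highest of them, had 32.0 and 39.0 CPM, then 17.9 and 22.9 CPM. Its log2 fold change with dexamethasone was -0.80 (edgeR unadjusted p 0.0128, adjusted p 0.456). The other markers of that list had positive fold changes, from 0.068 for Mki67 to 0.30 for Myf5. The 3 neuron markers Snap25, Syt1 and Rbfox3 summed to 23.3 CPM in vehicle replicate 1 and to 0.184, 0.434 and 0.257 CPM in vehicle replicate 2, dexamethasone replicate 1 and dexamethasone replicate 2. Of the 4 cardiac markers, only Myh6 had 20 or more counts in every library, and Nppa and Myl7 had at most 1. Summed levels in the other lists were 9.17 to 15.2 CPM for fibroblast markers, with Lum at 0 throughout, 1.47 to 2.54 CPM for smooth muscle and 0.968 to 1.45 CPM for endothelium.

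Dexamethasone was compared with vehicle first, to ask whether the chromatin-bound RNA of these genes changes within 2 h of glucocorticoid exposure. None of the 35 tested genes passed an adjusted p of 0.05 in edgeR's quasi-likelihood test, where 0.0376% of all 13285 tested genes passed. None reached an unadjusted p under 0.05 either, against 5.78% of all genes, and DESeq2 and limma-voom also called none (2.18% and 0% of all genes). These tests left out the replicate number, and the calls depend on that, as described below where the dependence on the processing is given. The fitted log2 fold changes ran from -0.38 for Jph2 to 0.55 for Jph1, with a median of -0.025 beside -0.0016 over all tested genes, and 16 were positive and 19 negative. Standard errors ran from 0.117 to 1.81 with a median of 0.213. In 3 genes (Cacna1s, Cav3 and Orai1) the treated libraries both exceeded the controls, where 15.0% of all genes did so. They were both below them in 5 genes (Stac3, Jph2, Bin1, Calm3 and Ppp3ca), against 12.9% of all genes.

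The libraries also differed by replicate number, and in 27 of the 35 genes this difference was larger than the one between treatments, as it was in 9069 of the 13285 tested genes. The labels do not say what a replicate number stands for. In edgeR's quasi-likelihood test of replicate 1 against replicate 2, with number as the only term, 10 of the 35 genes were higher in replicate 1 and 2 were lower at an adjusted p under 0.05, where 5.80% and 3.85% of all genes were. With counts scaled by library size only, which moved the median of all genes from -0.0059 to -0.194, the split was 6 higher and 4 lower (4.26% and 14.1% of all genes), the 4 being Itpr3, Camk2g, Camk2b and Dysf. The replicate 1 libraries lay above the replicate 2 libraries in 18 genes and below them in 9, beside 31.8% and 32.1% of all genes. Each replicate 2 library was also sequenced more deeply than the replicate 1 library of its group, and 8 of the 10 myotube markers were higher in both replicate 1 libraries; their part in the difference was not tested. In RNA from bulk cultures, fewer cells of a type and less RNA per cell cannot be told apart. Within one replicate number there is 1 library per group, which gives a difference and no test. In these within-number pairs, 13 of the 35 genes were higher with dexamethasone in both pairs (34.2% of all genes were), 15 were lower in both (33.9%), and 7 went opposite ways.

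**Figure D1:**
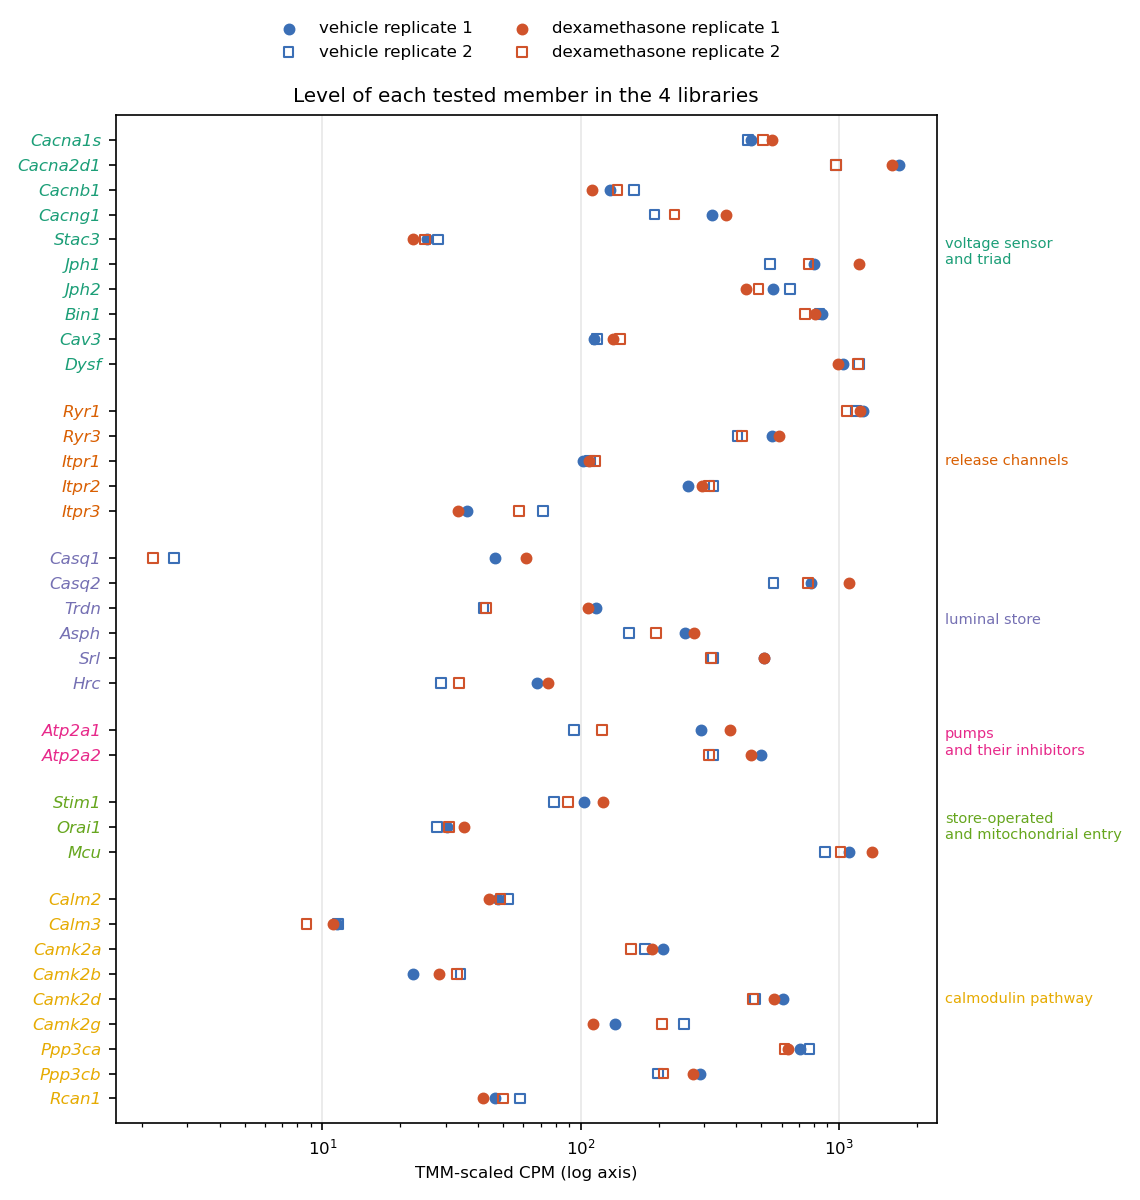
TMM-scaled CPM (x axis, log scale) of the 35 tested genes (y axis, grouped and coloured by role) in the 4 libraries, 1 point a library; filled circles are replicate 1, open squares replicate 2, blue vehicle and red dexamethasone. Squares and circles separate more widely than colours in the luminal store genes, most of all in Casq1 (2.66 and 2.22 CPM in replicate 2 against 46.5 and 61.3 CPM in replicate 1).

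**Figure D2:**
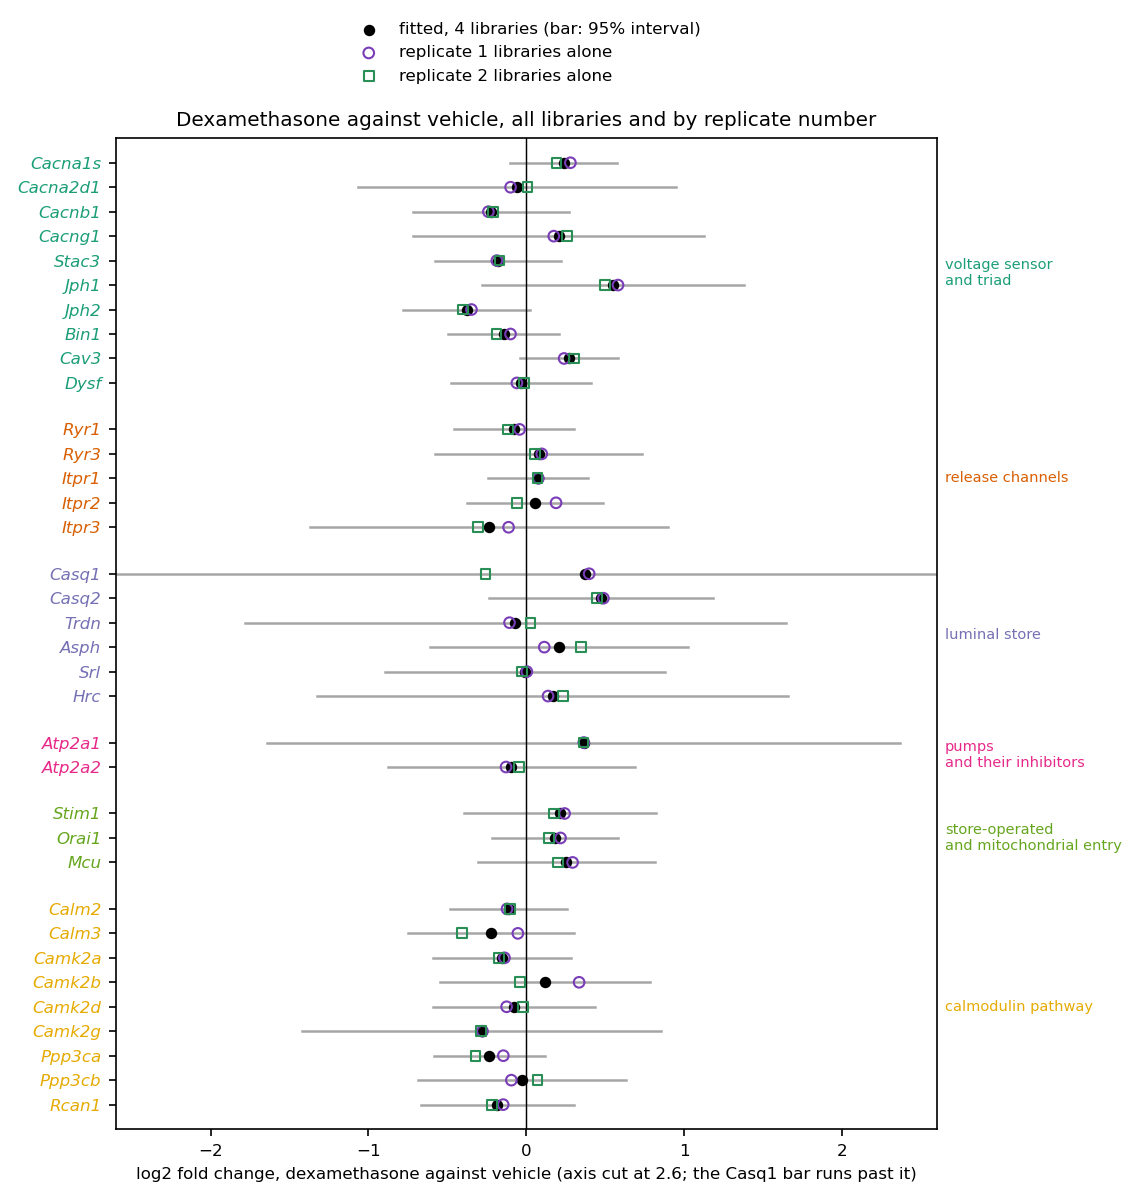
Log2 fold change of dexamethasone against vehicle (x axis) for the 35 tested genes (y axis), as fitted over 4 libraries (black, with the 95% interval as a bar) and within replicate 1 (purple circles) or replicate 2 (green squares) alone. All bars cross 0. In Jph1, Casq2, Jph2 and Atp2a1, picked after their values were seen, the values within each replicate number lie close together and away from 0. Others, such as Camk2g and Cacnb1, do the same. Over all tested genes, 34.2% were higher and 33.9% lower in both pairs.

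The voltage sensor and triad genes form the junction between tubule and store. Cacna1s, the pore and voltage-sensing subunit of the dihydropyridine receptor, had 455 and 443 CPM with vehicle and 552 and 506 CPM with dexamethasone. The groups did not overlap, and the log2 fold change was 0.24 (SE 0.129, 95% interval -0.10 to 0.58; edgeR unadjusted p 0.130). Cav3, the muscle caveolin of the tubule membrane, had 113 and 115 CPM with vehicle and 133 and 142 CPM with dexamethasone. It too was higher in both treated libraries. Its log2 fold change was 0.27 (SE 0.117, 95% interval -0.039 to 0.58; edgeR unadjusted p 0.0737). Cacna2d1, the auxiliary subunit with the most counts in this role, had 1708 and 969 CPM with vehicle and 1594 and 974 CPM with dexamethasone. Its libraries split by replicate number and not by treatment, at a log2 difference of 0.76 (SE 0.0829; edgeR adjusted p 0.0346) between the numbers. The difference was 1.76-fold in vehicle and 1.64-fold in dexamethasone. Cacna2d1 is also a neuronal gene. The summed neuron markers were 23.3 and 0.184 CPM in the vehicle libraries and 0.434 and 0.257 CPM in the dexamethasone libraries, while Scn2a, a neuronal sodium channel gene outside that list, was higher in replicate 1 in both groups (12.2 and 0.553 CPM, then 8.34 and 0.857 CPM). The part of such genes in the difference was not tested. Cacng1, the gamma subunit, split in the same direction by 0.70 (SE 0.128; edgeR adjusted p 0.0496), with values of 0.17 and 0.26 for dexamethasone against vehicle within the pairs. The beta subunit gene Cacnb1 had -0.24 and -0.21 within them. Stac3, the adaptor that the sensor needs to couple to the ryanodine receptor, was a gene of low level, with 25.5 and 28.0 CPM with vehicle and 22.4 and 24.9 CPM with dexamethasone.

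The junctophilins, which tie the tubule to the sarcoplasmic reticulum, had the most positive and the most negative fold change among the 35 genes. Jph1, the skeletal muscle form, had 799 and 539 CPM with vehicle and 1195 and 761 CPM with dexamethasone. Its groups overlapped, since vehicle replicate 1 lay above dexamethasone replicate 2. The log2 fold change was 0.55 (SE 0.313, 95% interval -0.28 to 1.38; edgeR unadjusted p 0.145), and it was 0.58 within replicate 1 and 0.50 within replicate 2. Leaving out dexamethasone replicate 1 gave 0.19, and leaving out vehicle replicate 1 gave 0.86. Both make the replicate numbers unequal between the groups, so the difference by number enters these values. Jph2, the form shared with heart, had 553 and 644 CPM with vehicle and 434 and 487 CPM with dexamethasone. Both treated libraries were below both controls, with a log2 fold change of -0.38 (SE 0.152, 95% interval -0.78 to 0.026; edgeR unadjusted p 0.0610, adjusted p 0.914) and values of -0.35 and -0.40 within the pairs. This was the smallest unadjusted p among the 35 genes. The ratio of Jph1 to Jph2, which needs no scaling between libraries, was 1.90-fold higher with dexamethasone within replicate 1 and 1.87-fold higher within replicate 2, a pair chosen after its values were seen. Per kb of exon the ratio was 1.23 and 0.712 with vehicle and 2.34 and 1.33 with dexamethasone, so all 4 values did separate by group, by a small margin. Of the membrane-shaping genes, Bin1, which forms tubules, was at 861 and 839 CPM with vehicle and 803 and 736 CPM with dexamethasone. Dysf, the membrane repair protein dysferlin, followed the replicate number, with 1032 and 1190 CPM against 991 and 1180 CPM.

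In all 5 release channel genes the treatment groups overlapped, as they did in 9579 of the 13285 tested genes. The log2 fold changes ran from -0.24 for Itpr3 (SE 0.428, 95% interval -1.37 to 0.90) to 0.080 for Ryr3 (SE 0.248, 95% interval -0.58 to 0.74). Ryr1, the ryanodine receptor that the voltage sensor opens in skeletal muscle, had 1240 and 1165 CPM with vehicle and 1204 and 1074 CPM with dexamethasone. The groups overlapped, with a log2 fold change of -0.078 (SE 0.144, 95% interval -0.46 to 0.30). Ryr3, a paralogue known from developing muscle and brain, had 548 and 404 CPM with vehicle and 587 and 420 CPM with dexamethasone and was higher in replicate 1 by 0.46 (SE 0.0813; edgeR adjusted p 0.0475). Per length, Ryr1 stood above Ryr3 in every library, by 1.78-fold to 2.51-fold per kb of exon and by 9.87-fold to 13.9-fold per kb of gene span. Both lengths are given because it is not stated whether introns were counted. Among the inositol trisphosphate receptors, which release calcium on hormone signals, Itpr2 had 259 and 326 CPM with vehicle and 296 and 313 CPM with dexamethasone. Itpr1 kept within 102 to 114 CPM. Ryr3 and Itpr1 are also expressed in neurons, and the part of neuronal RNA in their levels was not tested. Itpr2 exceeded Itpr1 in every library by either length, by 3.16-fold to 3.73-fold per kb of exon. Itpr3 was 1 of the 2 genes called lower in replicate 1, with 36.3 and 71.5 CPM with vehicle and 33.6 and 57.9 CPM with dexamethasone. Its difference between the numbers was -0.89 (SE 0.133; edgeR adjusted p 0.0414).

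The luminal store genes had a median log2 difference of 0.93 between the replicate numbers, beside -0.0059 over all genes. All 6 were higher in both replicate 1 libraries, as 31.8% of all genes were. Of the 6, 4 were called higher (Casq1, Trdn, Srl and Hrc), where 5.80% of all genes were, and with library size scaling these 4 were called too (4.26% of all genes). Casq1, skeletal calsequestrin, the high-capacity calcium buffer of fast muscle, had 866 and 101 counts with vehicle and 1836 and 207 with dexamethasone. At 46.5 and 2.66 CPM against 61.3 and 2.22 CPM, it was 17.5-fold higher in replicate 1 with vehicle and 27.6-fold higher with dexamethasone. The log2 difference between the numbers was 4.48 (SE 0.205; edgeR adjusted p 0.0172), and only 4 of the 13285 tested genes had a larger one in that direction. Against this spread nothing could be read on dexamethasone, with a log2 fold change of 0.37 (SE 1.81, 95% interval -4.42 to 5.17) and opposite signs within the pairs. Trdn, triadin, which anchors calsequestrin to the release channel, had 115 and 42.1 CPM with vehicle and 107 and 42.8 CPM with dexamethasone. The log2 difference was 1.38 (SE 0.0782; edgeR adjusted p 0.0173). Hrc, a histidine-rich luminal calcium-binding protein, had 67.6 and 28.7 CPM with vehicle and 74.4 and 33.8 CPM with dexamethasone, a difference of 1.185 (SE 0.118; edgeR adjusted p 0.0326). Srl, sarcalumenin, another luminal calcium binder, had 512 and 325 CPM against 513 and 319 CPM, the same in both groups, with a difference by number of 0.67 (SE 0.0717; edgeR adjusted p 0.0339). Asph, whose locus encodes junctin beside aspartate beta-hydroxylase, did not pass (0.59, SE 0.144; edgeR adjusted p 0.0715).

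Casq2, cardiac calsequestrin, differed less by replicate number than its paralogue, a comparison that was not tested. It had 778 and 556 CPM with vehicle and 1092 and 759 CPM with dexamethasone. Vehicle replicate 1 lay above dexamethasone replicate 2, so the groups overlapped, and the log2 fold change was 0.47 (SE 0.268, 95% interval -0.24 to 1.182; edgeR unadjusted p 0.144). Within the pairs it was 0.49 and 0.45. Leaving out dexamethasone replicate 1 gave 0.19, and leaving out vehicle replicate 1 gave 0.74. Here too the replicate numbers become unequal between the groups, and the difference by number enters the values. Between the replicate numbers Casq2 differed by 1.40-fold with vehicle and 1.44-fold with dexamethasone (edgeR adjusted p 0.217). Per kb of exon Casq2 stood above Casq1 in every library, and the ratio of Casq1 to Casq2 was 0.0837 and 0.0787 in the replicate 1 libraries and 0.00671 and 0.00409 in the replicate 2 libraries of vehicle and dexamethasone. The order was the same per kb of gene span.

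**Figure D3:**
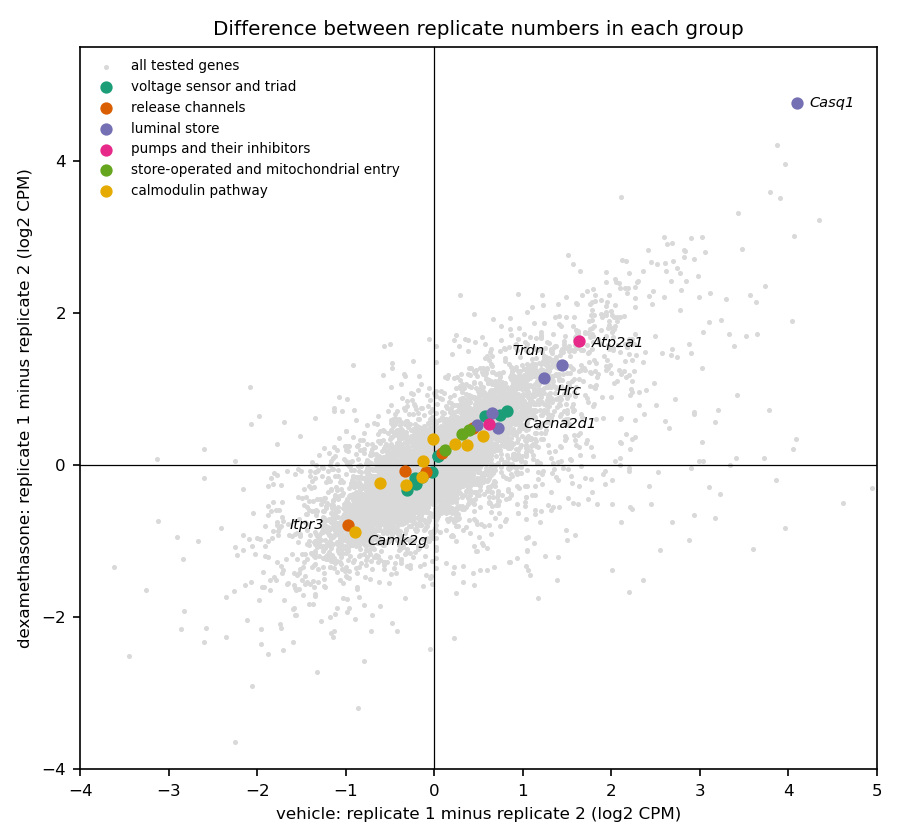
Replicate 1 minus replicate 2 in log2 CPM for vehicle (x axis) and for dexamethasone (y axis), 1 point a gene. Grey points are the tested genes within the axes and coloured points the 35 genes by role. Both axes are cut, and a tested gene beyond them is not shown, such as Syt1 (13.1 and 0.0791 CPM in vehicle). Casq1 stands far up the diagonal from the other genes of its role, and Itpr3 and Camk2g lie together below 0 on both axes.

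The pumps return calcium to the store. Atp2a1, SERCA1, the pump of fast muscle, had 293 and 94.2 CPM with vehicle and 377 and 121 CPM with dexamethasone. It was 3.11-fold higher in replicate 1 in each group, with a log2 difference of 1.64 (SE 0.194; edgeR adjusted p 0.0357). Within the pairs it was 0.36 higher with dexamethasone in each, but over the 4 libraries the fold change of 0.36 had an SE of 0.757 and a 95% interval of -1.64 to 2.37. Its sign changed with the library left out (-0.66 without dexamethasone replicate 1, -0.23 without vehicle replicate 2, 1.40 without vehicle replicate 1). Leaving out 1 library makes the replicate numbers unequal between the groups. The difference by number then enters the fold change, so these values cannot show how stable the treatment difference is. Atp2a2, SERCA2, the pump of slow muscle and heart, had 498 and 324 CPM with vehicle and 455 and 314 CPM with dexamethasone. It was higher in replicate 1 by 0.58 (SE 0.0852; edgeR adjusted p 0.0408) and differed by -0.096 (SE 0.295) with dexamethasone. Per kb of exon the ratio of Atp2a1 to Atp2a2 was 1.03 and 0.508 with vehicle and 1.45 and 0.675 with dexamethasone, so Atp2a1 stood above Atp2a2 in the replicate 1 libraries and below it in the replicate 2 libraries; per kb of gene span it was below only in vehicle replicate 2 (0.820). The small pump inhibitors had few counts. Sln, sarcolipin, had 2 and 6 counts with vehicle and 5 and 30 with dexamethasone. Pln, phospholamban, had 0 and 1 with vehicle and 0 and 1 with dexamethasone, and a count of 0 allows up to 0.153 CPM, here of the whole library without TMM scaling, in vehicle replicate 1 and 0.0924 in dexamethasone replicate 1 (3 counts of the total, for counting error only).

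**Figure D4:**
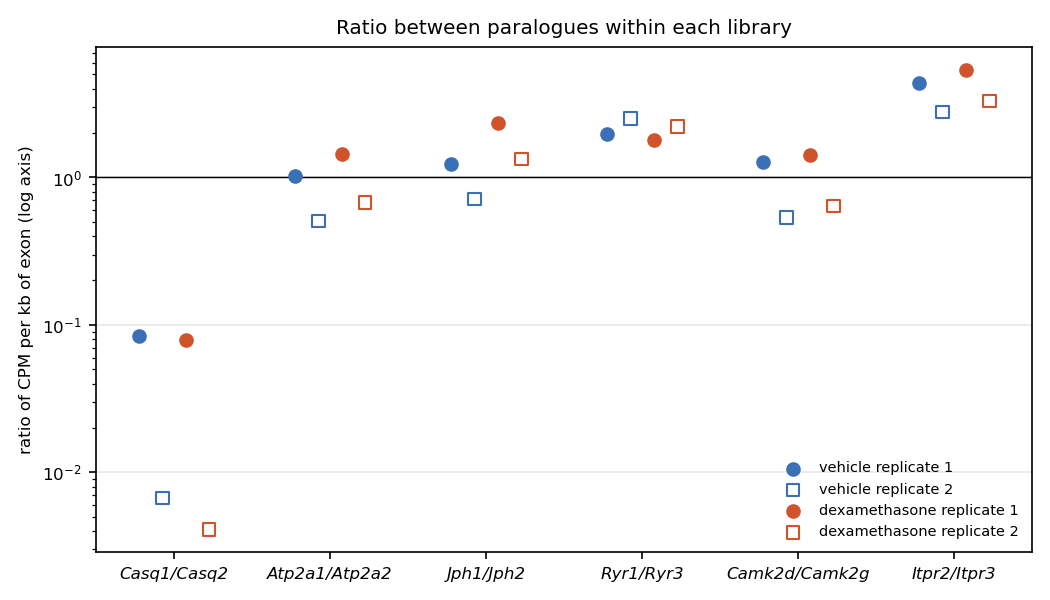
Ratio of CPM per kb of exon between paralogues within each library (y axis, log scale) for 6 pairs (x axis); filled circles are replicate 1, open squares replicate 2, blue vehicle and red dexamethasone. Casq1/Casq2 separates by replicate number by more than 10-fold, while both dexamethasone points of Jph1/Jph2 (2.34 and 1.33) lie above both vehicle points (1.23 and 0.712).

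Reference promoters are shown for Casq1, Atp2a1 and Hrc, which have the largest differences between replicate numbers among the genes with 1 promoter in the RefSeq table, and for Casq2, which has the largest fold change with dexamethasone among the others of these. The table (GRCm38.p6, a build other than the one named for the authors' alignment) held promoters of 22 of the 37 genes, each from 250 bases before the start site to 50 after it. Capitals mark CAGCTG, the E-box core bound by myogenic factors, in the first 3 sequences, and a match to the MEF2 motif in the fourth. The 4 windows are chr1:172219846-172220145 on the minus strand for Casq1, chr7:126463024-126463323 on the minus strand for Atp2a1, chr7:45335019-45335318 on the plus strand for Hrc and chr3:102086165-102086464 on the plus strand for Casq2.
Casq1: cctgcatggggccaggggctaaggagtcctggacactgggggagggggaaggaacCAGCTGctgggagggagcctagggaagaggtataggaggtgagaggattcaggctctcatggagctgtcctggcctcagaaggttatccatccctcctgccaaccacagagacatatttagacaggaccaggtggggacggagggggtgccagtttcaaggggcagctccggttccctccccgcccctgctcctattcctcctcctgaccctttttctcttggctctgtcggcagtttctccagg
Atp2a1: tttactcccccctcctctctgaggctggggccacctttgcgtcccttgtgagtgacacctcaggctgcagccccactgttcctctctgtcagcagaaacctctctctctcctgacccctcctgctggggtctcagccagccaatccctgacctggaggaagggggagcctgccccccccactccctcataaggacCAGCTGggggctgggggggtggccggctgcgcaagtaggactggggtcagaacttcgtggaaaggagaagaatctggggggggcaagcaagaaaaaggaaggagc
Hrc: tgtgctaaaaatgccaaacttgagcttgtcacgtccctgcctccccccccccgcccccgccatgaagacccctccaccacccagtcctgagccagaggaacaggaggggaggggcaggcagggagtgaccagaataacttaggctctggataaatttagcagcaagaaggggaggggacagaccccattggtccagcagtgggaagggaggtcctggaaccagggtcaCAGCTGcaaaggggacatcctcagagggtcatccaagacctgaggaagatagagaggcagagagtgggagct
Casq2: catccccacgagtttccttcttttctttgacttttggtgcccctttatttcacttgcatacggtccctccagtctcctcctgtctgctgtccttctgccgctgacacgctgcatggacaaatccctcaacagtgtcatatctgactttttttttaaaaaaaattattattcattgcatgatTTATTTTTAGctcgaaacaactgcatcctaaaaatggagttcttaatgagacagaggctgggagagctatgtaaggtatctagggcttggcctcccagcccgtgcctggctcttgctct
The E-box core begins at position -195 from the start site in Casq1, -55 in Atp2a1 and -22 in Hrc, and the MEF2 match at -69 in Casq2. CAGCTG, searched on both strands, was in the promoters of 8 of the 22 genes (Atp2a1, Cacna1s, Casq1, Cav3, Hrc, Jph2, Orai1 and Pln). Counted by promoter, it was in 9 of the 26 promoters of these genes and in 16.3% of all 32851 promoters of the same length. ACANNNTGT, the core of the glucocorticoid response element, searched on both strands, was in 2 genes (Pln and Rcan1). That was 2 of the 26 promoters, against 6.85% of all promoters. The MEF2 motif, searched on both strands, was in Casq2 alone of the 22, in 1 of the 26 promoters, against 3.19% of all. The motifs were counted independently of each other, a match is a description of these letters, and other regions were not searched.

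The entry genes were a small group of 3, all with a positive fold change and none called. Mcu, the pore of the mitochondrial calcium uniporter, had 1091 and 878 CPM with vehicle and 1337 and 1011 CPM with dexamethasone. Its groups overlapped, and the log2 fold change was 0.25 (SE 0.213, 95% interval -0.31 to 0.82; edgeR unadjusted p 0.291), with 0.29 and 0.20 within the pairs. Stim1, the store calcium sensor, had log2 differences of 0.24 and 0.18 within the pairs, and Orai1, the channel it opens in the plasma membrane, 0.22 and 0.14. Orai1 had 30.4 and 27.9 CPM with vehicle and 35.3 and 30.8 CPM with dexamethasone, groups that did not overlap by a narrow margin. None of the 3 was called by replicate number.

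In the calmodulin pathway 8 of 9 fold changes with dexamethasone were negative, as 6684 of the 13285 over all genes were. Of the 9 genes, 7 were lower in both pairs, beside 33.9% of all genes, and none was called, beside 0.0376%. Ppp3ca, the catalytic subunit of calcineurin with the most counts of this role, had 704 and 768 CPM with vehicle and 636 and 615 CPM with dexamethasone. Both treated libraries were below both controls, with a log2 fold change of -0.23 (SE 0.132, 95% interval -0.58 to 0.12; edgeR unadjusted p 0.142) and -0.15 and -0.32 within the pairs. Rcan1, a calcineurin inhibitor and a known target of the calcineurin pathway, had 46.5 and 58.2 CPM with vehicle and 42.0 and 50.1 CPM with dexamethasone, and its groups overlapped. Ppp3cb differed by number, by 0.46 (SE 0.0800; edgeR adjusted p 0.0461). Camk2g, a CaMKII kinase gene, was the other gene called lower in replicate 1, at 135 and 252 CPM with vehicle and 111 and 206 CPM with dexamethasone, a difference of -0.89 (SE 0.154; edgeR adjusted p 0.0460). Camk2d had 609 and 471 CPM with vehicle and 558 and 464 CPM with dexamethasone. Per kb of exon, Camk2d stood above Camk2g in replicate 1 (1.28 and 1.43) and below it in replicate 2 (0.533 and 0.641). Camk2a, the CaMKII kinase gene best known from neurons, whose locus also encodes a muscle anchoring protein, had 208 and 177 CPM with vehicle and 189 and 157 CPM with dexamethasone. Its level in vehicle replicate 1 was the highest of the 4, and the neuron markers summed to 23.3 CPM in that library and to at most 0.434 CPM in the others; their part in it was not tested. Its log2 fold change was -0.15 (SE 0.165) over all libraries. Leaving out vehicle replicate 1 gave -0.033 and leaving out dexamethasone replicate 2 gave -0.026, against -0.26 without vehicle replicate 2 and -0.29 without dexamethasone replicate 1. The difference by replicate number enters these values, since the numbers are then unequal between the groups. Camk2b had its lowest value, 22.4 CPM, in vehicle replicate 1, and 28.3 to 34.2 CPM in the others. Calm2 and Calm3 encode the same calmodulin protein and how reads matching more than 1 calmodulin gene were counted is not stated. Calm2 had 47.9 and 52.5 CPM with vehicle and 44.0 and 48.9 CPM with dexamethasone. Calm3, at 11.4 and 11.5 CPM with vehicle and 11.01 and 8.67 CPM with dexamethasone, was the gene of lowest vehicle mean among the 35.

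A list of 55 further genes of the same pathways, none of them among the 37, had 51 tested genes. None passed edgeR's adjusted p in either direction between dexamethasone and vehicle. The median log2 fold change was 0.0017, with 26 positive and 25 negative. At an unadjusted p under 0.05, 3 were higher and 0 lower, where 4.09% and 1.69% of all genes were. Ppp3cc, another calcineurin catalytic subunit, had 79.6 and 80.0 CPM with vehicle and 115 and 109 CPM with dexamethasone, a log2 fold change of 0.49 (SE 0.116; edgeR adjusted p 0.400). Itprid2, whose product tethers inositol trisphosphate receptors, had 48.8 and 53.8 CPM with vehicle and 84.1 and 72.2 CPM with dexamethasone (0.61, SE 0.146; edgeR adjusted p 0.416). Atp2b4, a plasma membrane calcium pump, had 85.4 and 78.4 CPM with vehicle and 128 and 100.2 CPM with dexamethasone (0.48, SE 0.168; edgeR adjusted p 0.791). In these 3 genes, picked by that p, both treated libraries lay above both controls. Of the 51 tested genes, 7 had both treated libraries above both controls, where 15.0% of all genes did. In 8 they were both below, against 12.9% of all genes. Ryr2, the cardiac ryanodine receptor, had 3 to 22 counts in a library. Trpc1 and Atp2c1 were listed at 0 in every library, and each lies in a run of 371 neighbouring genes on one strand of chromosome 9, none with a count, and they were not read as silent.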

How the data were processed

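Chromatin-bound RNA from 2 vehicle and 2 dexamethasone libraries was compared. The authors deposited a table of raw counts, 1 row per gene. Per the submitters' processing notes the tools were TopHat2 2.0.13, SAMtools 1.1, HTSeq 0.6.1 and DESeq2 1.18.1, with the build mm9; the annotation, strand setting and use of introns are not given in the sources used here. Kits for total RNA and for mRNA, both stranded, are named in the labels, and which was used is not settled. Of 23333 rows, 51 repeat a gene with all its counts and were used once. Genes were filtered with filterByExpr (minimum count 10, minimum total 15), which left 13285, and tested with edgeR 4.0.16 (R 4.3.3) by the quasi-likelihood test on group, two-sided, with TMM scaling (factors 0.924 to 1.08) and Benjamini-Hochberg adjustment over all genes at 0.05. The total degrees of freedom were 4.556. The SE is the log2 fold change over the square root of its F statistic. Within-pair differences use log2 CPM with a prior count of 2. The same test on replicate number alone described the numbers. The fits were also run on simulated counts with planted changes. The noise of those counts was set and not taken from these libraries, and no result here rests on that run. GENCODE M21 (GRCm38) gave lengths only, matched for 99.52% of tested genes and all 37 members. Of the 37 genes, 6 (Bin1, Ryr3, Asph, Atp2a1, Pln and Ppp3cb) overlap a tested gene on the opposite strand, whose reads cannot be told apart without strand.

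The members and lists were chosen with earlier results of these data known. Values per library were to be given for genes past an unadjusted p of 0.05, genes called with the replicate block whose groups lie apart, and the gene with most counts of each role; others given per library were chosen after their values were seen. Further pathway genes were named at an unadjusted p under 0.05. Alternatives were DESeq2 size factors, upper quartile and library size scaling, other filters, DESeq2 1.42.0 (Wald test), limma-voom (limma 3.58.1), the replicate number as a block with or without a length correction (loess span 0.3), an adjusted p of 0.1, and leaving out each library.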

Additional observations from a re-analysis of the deposited data

How the results depend on the processing

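No scaling, filter, test or threshold tried without a replicate block called any of the 35 genes or any further pathway gene between dexamethasone and vehicle. Of all tested genes, edgeR in the main setting called 0.0376%, DESeq2 2.18% and limma-voom 0%. The share over all genes is not given for the other scalings, filters and threshold. Beside shares this small, a count of 0 is not read as a lack of response in these genes. With the replicate number as a block, 6 of the 35 were called higher (Cacna1s, Jph1, Cav3, Casq2, Atp2a1 and Mcu) and 3 lower (Cacnb1, Jph2 and Camk2g) by edgeR, where 6.87% and 5.78% of all genes were; with a gene length correction added, 8 were called higher and 4 lower (8.33% and 8.14% of all genes). Of the 51 tested further pathway genes the block called 6 higher and 8 lower, beside 6.87% and 5.78% of all genes. With the correction it called 6 higher and 10 lower, beside 8.33% and 8.14%. The labels do not say that the number marks a shared culture or day, and with 2 pairs the pairing is not established. The replicate differences of vehicle and of dexamethasone had a correlation of 0.734 over 13285 genes, which are not independent. The blocked fit has 1 residual degree of freedom. The cause was not tested. Srl reversed with every gene that had a count kept (0.0084) and Casq1 under limma-voom (-0.11). Of the other tested alternatives for single genes with all libraries, 313 kept their direction and side, and 27 became stronger. All 27 were in the fits with the replicate block, with or without the length correction. Stronger here means only that the adjusted p crossed the threshold. The log2 fold change of Cacna1s, for example, was 0.237 without the block and 0.235 with it. A weaker result could not occur, since none of these genes was called in the main test.

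Leaving out 1 library makes the replicate numbers unequal between the groups, and the lone library is assumed to vary like the others. The difference by number then enters the fold changes, and only their size is given. The median of the 35 genes ran from -0.10 (without vehicle replicate 2) to 0.25 (without vehicle replicate 1). Genes whose sign changed had these ranges: Asph -0.10 to 0.61, Atp2a1 -0.66 to 1.40, Atp2a2 -0.38 to 0.25, Cacna2d1 -0.45 to 0.41, Cacng1 -0.16 to 0.63, Camk2b -0.15 to 0.47, Camk2d -0.24 to 0.12, Camk2g -0.80 to 0.24, Casq1 -3.44 to 3.56, Dysf -0.17 to 0.092, Hrc -0.50 to 0.91, Itpr2 -0.0997 to 0.24, Itpr3 -0.69 to 0.34, Ppp3cb -0.27 to 0.27, Ryr1 -0.16 to 0.0013, Ryr3 -0.17 to 0.32, Srl -0.38 to 0.36, Stim1 -0.024 to 0.43 and Trdn -0.86 to 0.83.

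Between replicate numbers, with group as a second term 17 of the 35 were higher in replicate 1 and 7 lower (22.1% and 22.2% of all genes), and with library size only 6 were higher and 4 lower (4.26% and 14.1%). There Ryr1 (-0.063), Cacna1s (-0.11), Orai1 (-0.026), Calm3 (-0.034) and Bin1 (-0.11) reversed. Limma-voom called 10 and 2 (5.56% and 2.90%), and DESeq2 13 and 2 (10.9% and 8.44%). Leaving out 1 library, an alternative chosen after seeing the data, leaves 1 library for a replicate number and 1 residual degree of freedom. Only log2 differences between the numbers are therefore given for it. That of Casq1 ran from 4.25 to 4.66. Ranges with a change of sign were Bin1 -0.019 to 0.17, Cacna1s -0.076 to 0.22, Calm3 -0.045 to 0.36, Cav3 -0.22 to 0.087, Jph2 -0.39 to 0.00996 and Ppp3ca -0.20 to 0.12. Depth limits Sln and Pln, with at most 30 counts.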

Other observations

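Several other genes, muscle genes among them, differed by replicate number by about as much as Casq1. Ordered by log2 difference among the genes that edgeR called higher in replicate 1, Casq1 came after Aldh1b1 and Car3, and before Myh2 and Myf6; these genes were chosen after their values were seen. Myh2, an adult fast myosin heavy chain, had 127 and 16 counts with vehicle and 196 and 29 with dexamethasone, a log2 difference of 4.23 (SE 0.216; edgeR adjusted p 0.0172). Myf6, the myogenic regulator of late differentiation, had 66 and 7 counts with vehicle and 124 and 21 with dexamethasone, a difference of 4.18 (SE 0.241; edgeR adjusted p 0.0173). Car3, the carbonic anhydrase of slow muscle, had 92 and 3 counts against 129 and 21, a difference of 4.73 (SE 0.429; edgeR adjusted p 0.0294). The myotube markers Ckm, Acta1, Myh3 and Myh8 differed by 2.82, 1.81, 1.65 and 1.66 in the same direction, while Mymk, the fusion gene, differed by 0.011. The neuronal genes Scn2a and Myt1l were also among the 10 called genes with the largest differences, at 3.80 and 3.74. Scn2a had 227 and 21 counts with vehicle and 250 and 80 with dexamethasone. B3galt2, Tmc1 and 4933428C19Rik made up the rest of the 10, at 3.84, 3.77 and 3.72.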
